A study of Bos taurus with 6 samples.

Results

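The miRNAs described here are the mature products of a pair of paralogous clusters, MIR23A, MIR27A and MIR24-2 (the a cluster) and MIR23B, MIR27B and MIR24-1 (the b cluster). They were selected by identifier, and no threshold on a measured value was used. Of 8 listed identifiers, 7 were matched among the 512 miRNAs of the EV libraries, namely bta-miR-23a, bta-miR-23b-3p, bta-miR-23b-5p, bta-miR-24-3p, bta-miR-27a-3p, bta-miR-27a-5p and bta-miR-27b. The remaining identifier, bta-miR-24, was not analysed here. Small RNA had been sequenced from extracellular vesicles (EVs) in the spent medium of bovine granulosa cells, the somatic cells that line the ovarian follicle and feed the oocyte. The cells came from slaughterhouse ovaries (follicles of 3 to 6 mm) and grew for 24 h at 37 °C in medium with serum depleted of exosomes. They then either stayed at 37 °C (Control-EVs, n = 3) or were moved to 42 °C (HS-EVs, n = 3) for a further 24 h. The libraries of a group are labelled as biological replicates, but the number of animals behind each is not given in the sources used here. The question addressed was whether heat stress changes the miRNA load of the EVs.

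A miRNA is cut from a hairpin precursor and guides silencing of mRNAs that pair with its seed, the bases near its 5′ end. Each hairpin has a 5p and a 3p arm, of which usually a single arm is loaded and kept while the other is degraded. miR-23a and miR-23b share a seed, and so do miR-27a and miR-27b, with mature sequences that differ by a single base within each pair. The authors' counting could therefore have split reads between paralogs. miR-24-3p is the same molecule whether it comes from MIR24-1 or MIR24-2, so it cannot be assigned to a cluster. miR-23a has been linked to granulosa cell apoptosis, and miR-27 is best known for its role in lipid metabolism and adipocyte differentiation. RefSeq's annotation (ARS-UCD2.0, a later assembly than that of the authors) places the a cluster between NANOS3 and ZSWIM4, and the b cluster within AOPEP, beside FANCC.

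Reads on all 512 miRNAs numbered 274434 to 587850 in the Control-EVs libraries and 506670 to 2360980 in the HS-EVs libraries. They were recovered from the deposited normalized read counts, of which 100% were whole multiples of the worth of a read in their library. In every library the recovered total exceeded the number of reads on annotated miRNAs that the study's alignment summary lists, for a reason not given in the sources used here. A read is therefore a unit of the deposited values that need not be an independent molecule, and intervals built on reads may be too narrow. The entry bta-miR-1246 took 59.9% to 84.6% of the reads in Control-EVs and 75.6% to 98.6% in HS-EVs. HS-EVs replicate 1 stood apart, since only 34141 of its reads fell on other miRNAs, against 73569 to 235634 in the other libraries, and a read there was worth 4.11 normalized counts against 0.697 to 1.98 elsewhere. Ratios between members within a library are free of this scaling. All values are relative abundances, so that they give neither the number of EVs nor the copies per EV. The study counted more EVs from the heat-stressed cells.

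The 5 members from the 3p arms were found in every library, and their order was the same in all 6. bta-miR-27b was the most abundant, with rank 26 of 512 by mean normalized count. Its normalized counts were 753, 1574 and 1233 in the Control-EVs libraries, listed here and throughout from replicate 1 to replicate 3, against 941, 958 and 833 in HS-EVs. The HS-EVs libraries thus lay within the range of the Control-EVs libraries. bta-miR-24-3p (rank 32) had 642, 1097 and 1033 normalized counts in Control-EVs and 662, 762 and 712 in HS-EVs. Here too, all HS-EVs libraries lay between the lowest and the highest Control-EVs library. bta-miR-23a (rank 57) had 257, 337 and 425 in Control-EVs and 349, 326 and 401 in HS-EVs. Its groups overlapped as well. bta-miR-27a-3p (rank 95) had 64.2, 92.7 and 138 in Control-EVs and 82.2, 114 and 81.5 in HS-EVs, again with overlap. bta-miR-23b-3p (rank 125) had 51.4, 22.3 and 29.6 in Control-EVs and 74.0, 62.7 and 79.9 in HS-EVs. In this member alone among the 7, every HS-EVs library lay above every Control-EVs library.

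**Figure D1:**
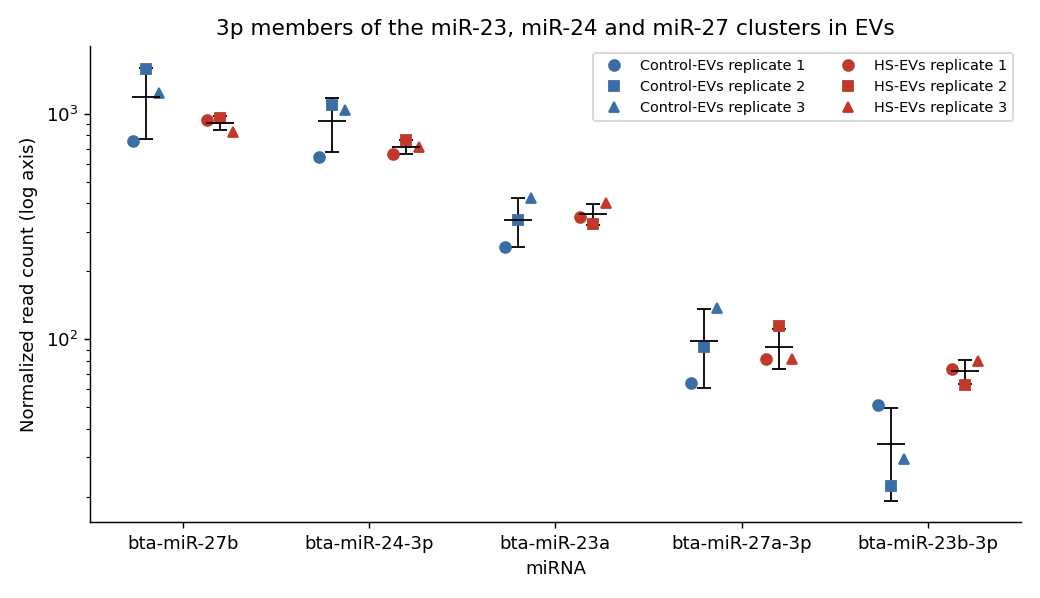
Normalized read counts (log axis) of the 5 members from the 3p arms in each EV library, with Control-EVs in blue, HS-EVs in red, a symbol for each replicate number, and the mean ± SD (n = 3) as black bars. The levels fall from bta-miR-27b to bta-miR-23b-3p in the same order in all 6 libraries, and the groups are apart for bta-miR-23b-3p, with at most 51.4 in Control-EVs and at least 62.7 in HS-EVs.

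Neighbours in this order differed by unequal amounts. bta-miR-27b exceeded bta-miR-24-3p by 1.17 to 1.43 times, and bta-miR-24-3p exceeded bta-miR-23a by 1.78 to 3.26 times. bta-miR-23a exceeded bta-miR-27a-3p by 2.85 to 4.92 times. bta-miR-27a-3p and bta-miR-23b-3p were the only neighbours among the 5 whose mean log2 ratio (0.93) was no larger than its SD over the 6 libraries (0.96). In HS-EVs replicate 3 they had 50 and 49 reads. Levels of different miRNAs also carry the ligation bias of the library kit, which was not measured.

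In HS-EVs, bta-miR-23b-3p averaged 72.2 ± 8.72 normalized counts (SD, n = 3), against 34.4 ± 15.1 in Control-EVs. Its log2 fold change was 1.12 (95% confidence interval 0.07 to 2.18, standard error 0.47), with an unadjusted p-value of 0.0392 and an adjusted p-value of 0.873 from limma on log2(normalized count + 1) over all 512 miRNAs. The direction held with each library left out (0.86 to 1.45), but scaling by all reads of the library turned it to -0.34, a scaling that also shifts the median over all 512 miRNAs from 0.01 to -0.79. The unadjusted p-value of limma rose to between 0.0575 and 0.0727 with a pseudocount of 0.5 or without Control-EVs replicate 3, HS-EVs replicate 1 or HS-EVs replicate 3. Its extremes in limma were 0.00317 without Control-EVs replicate 1 and 0.752 when scaled by all reads. The reads of bta-miR-23b-3p were few, at 28, 32 and 15 in Control-EVs and 18, 57 and 49 in HS-EVs. Counting error alone gives an SD of 0.30 on the log2 scale in Control-EVs and 0.25 in HS-EVs, where the observed SDs were 0.59 and 0.18.

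The other members of the 3p arms had smaller differences, and with all 6 libraries limma gave none of them an unadjusted p-value below 0.46. bta-miR-24-3p averaged 924 ± 246 normalized counts in Control-EVs and 712 ± 50.4 in HS-EVs (SD, n = 3), which is -0.34 as log2 fold change (95% interval -1.33 to 0.65, adjusted p = 0.873 from limma). bta-miR-27b averaged 1186 ± 413 and 911 ± 67.9 (SD, n = 3), which is -0.32 on that scale (-1.35 to 0.71, adjusted p = 0.892 from limma). Their intervals thus span a fall by more than 2-fold as well as a rise. Without Control-EVs replicate 1 the log2 fold changes were -0.58 for bta-miR-24-3p and -0.62 for bta-miR-27b, and without Control-EVs replicate 2 they were -0.20 and -0.08. bta-miR-23a differed by 0.10 (-0.87 to 1.08) and bta-miR-27a-3p by -0.04 (-1.09 to 1.02) on the log2 scale, and the sign of both changed with the scaling or with a library left out.

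Of the 7 members, 0 passed the study's threshold (adjusted p no higher than 0.3 and at least a doubling or halving), as did 0% of all 512 miRNAs in limma's test. The study applied this threshold to edgeR's test and named several miRNAs as enriched in HS-EVs, none of them a member. Its list of EV miRNAs that differed also held bta-miR-23b-3p and bta-miR-27a-5p. Both were higher in HS-EVs, with adjusted p-values far above the threshold. At an unadjusted p of 0.05 or less there was 1 member of 7, next to 4.88% (25 miRNAs) over all, made up of 2.73% higher and 2.15% lower in HS-EVs. Without Control-EVs replicate 1 there were 3 (bta-miR-24-3p and bta-miR-27b as well, both lower in HS-EVs), next to 8.40% of all 512. The groups did not overlap in 1 of 7 members, next to 6.45% (33 miRNAs) of all, and 1 of 7 was wholly higher in HS-EVs, next to 3.71%. With 7 members, 1 is near these backgrounds. The median log2 fold change was -0.04 over the members and 0.01 over the 512.

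**Figure D2:**
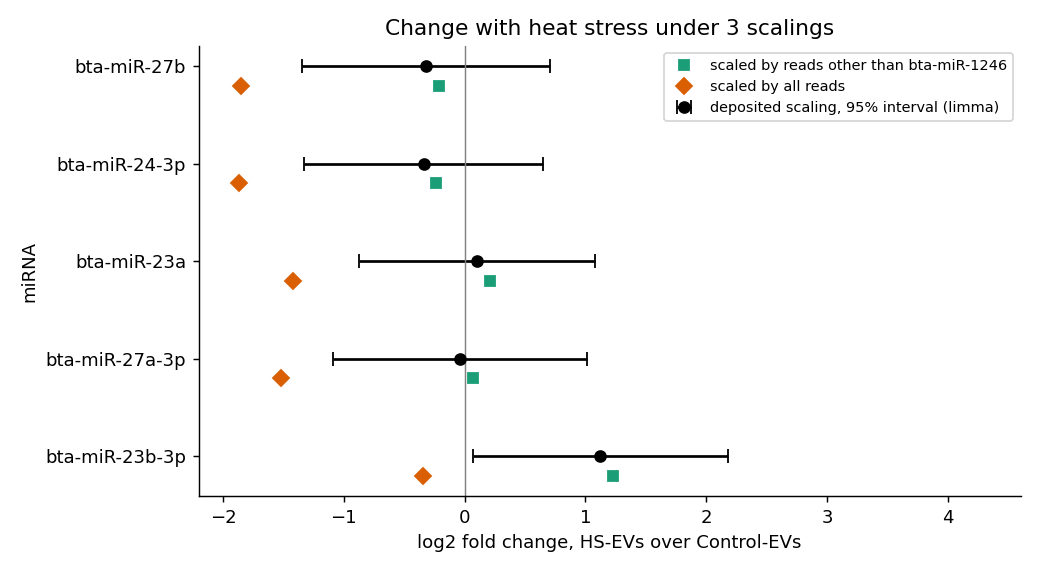
Log2 fold change of HS-EVs over Control-EVs for the 5 members from the 3p arms, as black points with limma's 95% confidence intervals on the deposited scaling, and as coloured points for 2 other scalings. The interval leaves out 0 only for bta-miR-23b-3p (0.07 to 2.18), and scaling by all reads moves every point down, that of bta-miR-23b-3p to -0.34.

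The paralogs were compared within libraries, and the b cluster led in the miR-27 pair while the a cluster led in the miR-23 pair. There were 11.3 ± 3.09 reads of bta-miR-27b for each read of bta-miR-27a-3p (SD, n = 6), but only 0.157 ± 0.0689 reads of bta-miR-23b-3p for each read of bta-miR-23a. Both statements held in all 6 libraries. For the miR-27 pair the ratio was 11.7, 17.0 and 8.91 in Control-EVs and 11.4, 8.38 and 10.2 in HS-EVs. The groups overlapped, and their mean log2 ratios differed by -0.29 (exact permutation test, two-sided, p = 0.4), which became -0.04 without Control-EVs replicate 2 and -0.51 without Control-EVs replicate 3.

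For the miR-23 pair, bta-miR-23b-3p was present at 0.200, 0.0663 and 0.0698 reads per read of bta-miR-23a in Control-EVs. In HS-EVs the ratio was 0.212, 0.193 and 0.199, so that the spread was far smaller there. The mean log2 ratio was -3.33 ± 0.89 in Control-EVs and -2.30 ± 0.08 in HS-EVs (SD, n = 3), a difference of 1.03 (two-sided exact permutation test, p = 0.3, where the design allows no p below 0.1). Counting error alone gives an SD of 0.30 for this log2 ratio over all libraries. The small spread in HS-EVs lies below that and cannot be read as a tighter ratio. Control-EVs replicate 1 lay among the HS-EVs libraries. Its 95% Wilson interval (0.134 to 0.299) did not overlap those of Control-EVs replicate 2 (0.0464 to 0.0946) and replicate 3 (0.0416 to 0.117), and these intervals cover counting error only. The groups thus overlapped in this ratio.

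**Figure D3:**
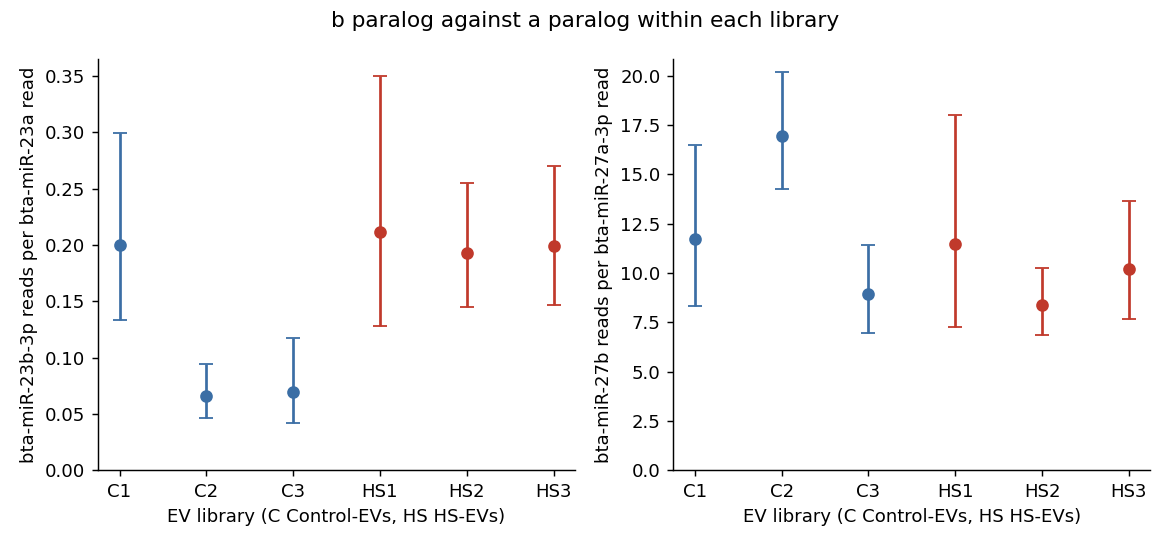
Reads of the b paralog per read of the a paralog in each EV library, for the miR-23 pair (left) and the miR-27 pair (right), with 95% Wilson intervals for counting error, Control-EVs in blue and HS-EVs in red. The miR-23 ratio is 0.193 to 0.212 in 4 libraries and below 0.07 in Control-EVs replicates 2 and 3, and the miR-27 ratio overlaps between the groups.

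The shares of bta-miR-122 and bta-miR-1246 were set beside the miR-23 ratio. bta-miR-122, a miRNA of liver that is also found in serum, took 8.70%, 15.5% and 14.7% of the reads other than bta-miR-1246 in Control-EVs and 9.72%, 7.25% and 5.32% in HS-EVs. Its share was thus highest in Control-EVs replicates 2 and 3, the libraries with the lowest ratio. Among the other libraries it was highest in HS-EVs replicate 1, which had the highest ratio (0.212). The share of bta-miR-1246 was lowest in the same 2 libraries (59.9% and 73.2%). Markers of other cell types are given as ranges. The summed red blood cell markers (bta-miR-451, bta-miR-144 and bta-miR-486) ranged from 3815 to 9123 RPM (each library scaled to the same total, with bta-miR-1246 left out of the total) in Control-EVs and from 2357 to 5858 in HS-EVs. Myeloid markers (3 of 3 found) ranged from 1235 to 2206 and from 1670 to 2088, and endothelial markers (2 of 2 found) from 785 to 5429 and from 1563 to 6122. bta-miR-202, which is enriched in the somatic cells of the gonads, was found at 11889 to 12927 in Control-EVs and 7185 to 14880 RPM in HS-EVs. No marker was at 0 in any library, and the part of these miRNAs in the results was not tested.

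bta-miR-24-3p was set against the sum of the other 3p members, since it is the product that both clusters share. It stood at 0.571, 0.541 and 0.566 reads per read of the others in Control-EVs and at 0.457, 0.522 and 0.511 in HS-EVs. Every HS-EVs library was below every Control-EVs library, but the difference was small, at -0.17 on the log2 scale (p = 0.1 in a two-sided exact permutation test, the lowest it can give, and 0.3 after adjustment over the 3 ratios tested). The Wilson intervals of the closest libraries overlapped, from 0.509 to 0.576 in Control-EVs replicate 2 and from 0.476 to 0.572 in HS-EVs replicate 2. Against bta-miR-23a alone the ratio was 2.50, 3.26 and 2.43 in Control-EVs and 1.89, 2.34 and 1.78 in HS-EVs, also without overlap, a pair picked after its values were seen.

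The 7 members together held 1.26%, 1.90% and 1.97% of the reads other than bta-miR-1246 in Control-EVs and 1.50%, 1.64% and 1.50% in HS-EVs. The means were 1.71% ± 0.39 and 1.55% ± 0.08 (SD, n = 3), so that the difference was smaller than the SD of Control-EVs (p = 0.4, two-sided exact permutation test). Products made only by the b cluster held 46.3% ± 2.92 of the member reads (SD, n = 6), nearly all of them bta-miR-27b. bta-miR-24-3p held 34.5% ± 1.84, and products made only by the a cluster held 19.2% ± 3.14. The b cluster took between 43.1% and 51.1% in every library, while the share of the a cluster ranged more widely, from 13.8% in Control-EVs replicate 2 to 23.2% in HS-EVs replicate 3.

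**Figure D4:**
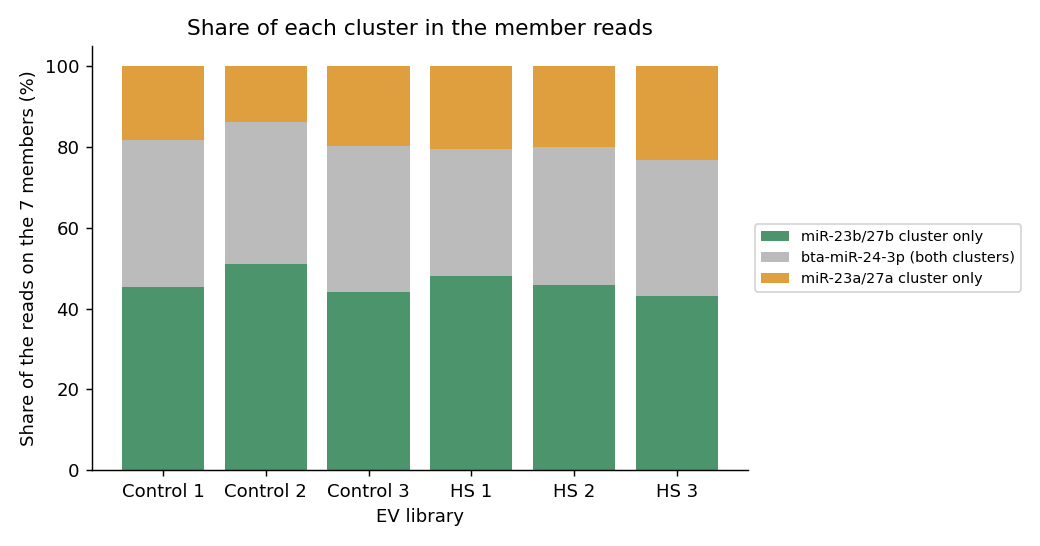
Share of the reads on the 7 members (percent, bars sum to 100) that fell on products of the b cluster only, on bta-miR-24-3p, which both clusters make, and on products of the a cluster only, in each EV library. The b cluster holds 43.1% to 51.1%, bta-miR-24-3p 31.4% to 36.3% and the a cluster 13.8% to 23.2%.

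By seed, the 3p arms of the miR-27 pair held 49.2% ± 3.74 of the member reads in Control-EVs and 46.6% ± 2.98 in HS-EVs (SD, n = 3). Those of the miR-23 pair held 14.9% ± 3.08 and 20.1% ± 2.64. Summing a pair removes any split of reads between its paralogs. For the miR-23 pair, Control-EVs replicate 1 and HS-EVs replicate 2 had equal shares to 3 digits (17.4%), with the other Control-EVs libraries below and the other HS-EVs libraries above.

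The members did not all vary together across the 6 libraries. Among the 10 pairs of 3p members, bta-miR-27b and bta-miR-24-3p kept the most constant ratio, with an SD of 0.14 on the log2 scale, where counting error alone gives 0.10. The 6 pairs without bta-miR-23b-3p had SDs between 0.14 and 0.38. The 4 pairs with bta-miR-23b-3p had SDs between 0.80 and 1.10, of which counting error gives 0.29 to 0.35. bta-miR-23b-3p departed most from bta-miR-27b, its neighbour in the b cluster. There were 14.6, 70.5 and 41.6 reads of bta-miR-27b for each read of bta-miR-23b-3p in Control-EVs and 12.7, 15.3 and 10.4 in HS-EVs. The groups overlapped there, but not in the ratio of bta-miR-24-3p to bta-miR-23b-3p, which was 12.5, 49.2 and 34.9 in Control-EVs and 8.94, 12.2 and 8.92 in HS-EVs. In all, 2 of the 10 pairs did not overlap between the groups, this and that of bta-miR-24-3p with bta-miR-23a. A pair without any group difference would separate the groups with a probability of 0.1, and the share over other pairs of miRNAs was not computed. These ratios share their libraries and some of their members, and they are given as a description.

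**Figure D5:**
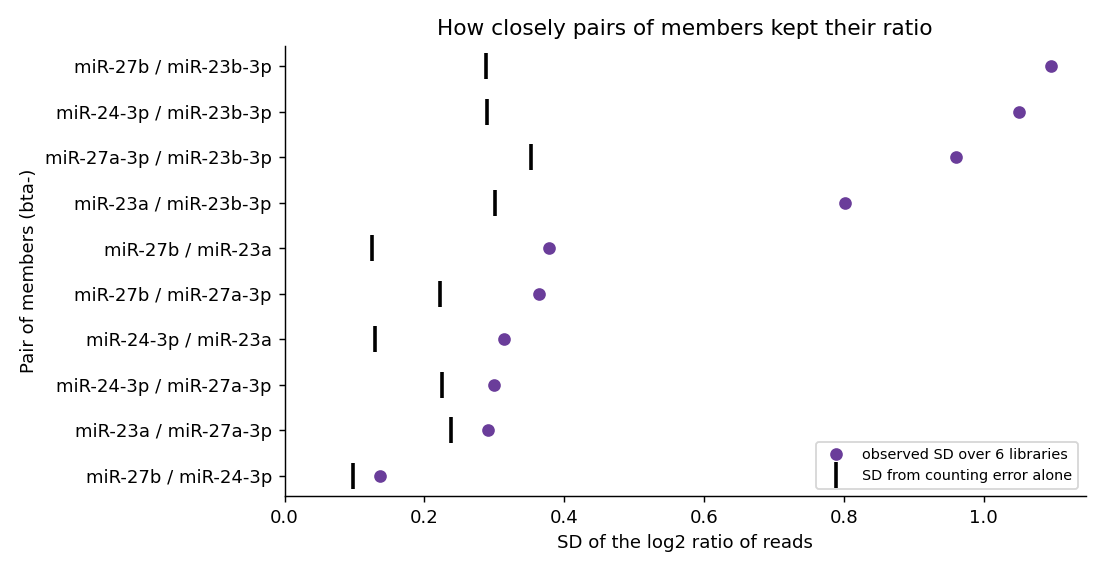
SD over the 6 EV libraries of the log2 ratio of reads for each pair of 3p members (purple points), beside the SD that counting error alone gives (black ticks). The 4 pairs with bta-miR-23b-3p lie at 0.80 to 1.10, and the other 6 pairs at 0.14 to 0.38.

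The 5p arms were rare. bta-miR-23b-5p had 0, 2 and 0 reads in Control-EVs and 0, 1 and 0 in HS-EVs, so that no fold change is given. It made up 2 of 77 reads of the hairpin in Control-EVs (2.60%, Wilson interval 0.715% to 8.98%) and 1 of 125 in HS-EVs (0.80%, 0.141% to 4.39%). bta-miR-27a-5p had 1, 0 and 0 reads in Control-EVs and 0, 3 and 6 in HS-EVs. The 0 of 20 reads of the hairpin in HS-EVs replicate 1 still allows a share of up to 15.0% (3 reads of 20), and the Wilson interval reaches 16.1%. Of all reads of the miR-27a hairpin, 1 of 239 in Control-EVs (0.418%, 0.0739% to 2.33%) and 9 of 183 in HS-EVs (4.92%, 2.61% to 9.08%) came from the 5p arm, with 6 of the 9 from a single library. Per read other than bta-miR-1246 the pooled count was 14.2 times higher in HS-EVs, with a counting interval from 1.97 to 623 that leaves out the spread between libraries. Among tests that take that spread into account, limma gave bta-miR-27a-5p a log2 fold change of 1.34 (95% interval -0.50 to 3.18), with an unadjusted p of 0.135 and an adjusted p of 0.873. Over the alternatives the fitted value ran from 0.55 (without HS-EVs replicate 3) to 3.12 (edgeR). The unadjusted p was 0.0168 in edgeR's quasi-likelihood test (adjusted 0.635), which put 5.08% of all miRNAs at 0.05 or less. It was 0.0167 in limma without HS-EVs replicate 1 (adjusted 0.573, next to 6.84% of all), but 0.171 to 0.568 in limma with any other library left out, and DESeq2 gave 0.115. Both 5p arms missed the study's criterion for detection, for which 2 of the 3 libraries of a group must reach a normalized count of 10, and which all 5 members of the 3p arms met.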

How the data were processed

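According to the submitters' processing notes and the study's methods, the authors trimmed reads with cutadapt (1.11), collapsed reads with the same UMI (a random tag on each captured molecule), and mapped them with Bowtie2 (2.2.2) to the bovine genome (UMD3.1) and then to miRBase. The deposited values are normalized read counts, a signal scaled by the authors with TMM in edgeR. Each value was divided by the worth of a read in its library to recover whole reads (largest distance from a whole number 6.27e-05 reads). The recovery takes the smallest value above 0 in a library as a single read. The test over the 512 miRNAs was limma's (3.58.1, R 4.3.3) on log2(normalized count + 1), with Benjamini-Hochberg adjustment. edgeR (4.0.16, quasi-likelihood) and DESeq2 (1.42.0) on recovered reads, other scalings, pseudocounts, a filter and left-out libraries were alternatives. No library was a copy of another (15 pairs, chi-square divided by its degrees of freedom at least 34.3). Ratios had 0.5 reads added on the log2 scale. Wilson intervals (95%) cover counting error only, and a count of 0 allows up to 3 reads. The identifiers of the members, the lists and the tests were picked with earlier results of these data known. Other miRNAs were named if their log2 ratio to the summed members had one of the 5 smallest SDs, among those with 10 or more reads in every library, or if they were in a list of markers or of granulosa cell miRNAs. p-values measure the spread between these libraries. No mature sequences were used here.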

Additional observations from a re-analysis of the deposited data

How the results depend on the processing

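Of the members, 0 passed the study's threshold under every alternative but the following. edgeR's quasi-likelihood test with the replicate number as a block, chosen after the data were seen, called 1, bta-miR-23b-3p (log2 fold change 1.15, adjusted p = 0.207). Over its other alternatives the adjusted p-value of bta-miR-23b-3p ranged from 0.366 to 0.995. Over all 512 miRNAs, 3 were called by edgeR's quasi-likelihood test, 8 by that test with the replicate block, 2 by limma with a trend, 1 with a pseudocount of 0.5, and 0 to 4 with a library left out, where limma called 0 (25 at an unadjusted p of 0.05 or less, and DESeq2 0 with 10). limma with the replicate block called 0. The deviations of same-numbered libraries correlated by 0.14, 0.14 and 0.08, so the numbers were not taken as pairs, although every Control-EVs library correlated best with its own number. Scaling by all reads left 0 members with groups that did not overlap (4.88% of all miRNAs, 25 lower and 0 higher in HS-EVs), and gave log2 fold changes of -1.42 for bta-miR-23a and -0.34 for bta-miR-23b-3p. bta-miR-27a-3p turned to 0.070 on reads other than bta-miR-1246. With a library left out it ranged from -0.30 to 0.24, and bta-miR-23a from -0.082 (without Control-EVs replicate 1) to 0.28. bta-miR-24-3p and bta-miR-27b were lower in HS-EVs under all 17 alternatives, with log2 fold changes of -0.58 to -0.20 and of -0.62 to -0.08 with a library left out (lowest without Control-EVs replicate 1, highest without Control-EVs replicate 2), and of -1.87 and -1.85 when scaled by all reads. The difference in the miR-23 log2 ratio ranged from 0.75 (without Control-EVs replicate 2) to 1.55 (without Control-EVs replicate 1), that of the miR-27 ratio from -0.51 to -0.04 (without Control-EVs replicate 2), and that of the bta-miR-24-3p ratio from -0.21 to -0.12. The difference in the members' share of reads ranged from -0.39 (without Control-EVs replicate 1) to -0.03 percentage points (without Control-EVs replicate 3). The cause of these changes was not tested. Both 5p members had at most 6 reads in a library, and their counting intervals are wide.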

Other observations

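The miRNAs whose levels most resembled the summed members were found by the SD of their log2 ratio to that sum over the 6 libraries, among 125 other miRNAs with 10 or more reads in every library. They were bta-miR-507b (SD 0.10), bta-miR-148b (0.13), bta-miR-199a-3p (0.14), bta-miR-16a (0.18) and bta-miR-93 (0.20), where the median of the 125 was 0.49. Counting error was not computed for these SDs. The reads of bta-miR-507b averaged only 4.41% of those of the summed members, so its first place is uncertain. Each member was also set against the sum of the others: bta-miR-24-3p had an SD of 0.12, and bta-miR-23b-3p one of 1.03.

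Of 12 other miRNAs with reported roles in granulosa cell survival, 0 passed the study's threshold in limma's test. At an unadjusted p of 0.05 or less, 1 was higher in HS-EVs and 0 were lower, next to 2.73% and 2.15% of all 512. It was bta-miR-181a, which targets activin receptor mRNA in granulosa cells, with 7.82 ± 5.07 normalized counts in Control-EVs and 23.1 ± 4.04 in HS-EVs (SD, n = 3). These rest on 1 to 19 reads per library. The log2 fold change was 1.68 (adjusted p = 0.785 from limma), or 1.02 without Control-EVs replicate 3, where the miRNA had a single read, and 0.41 when scaled by all reads. The groups did not overlap in 2 of the 12, bta-miR-181a and bta-miR-22-3p, the latter named after its values were seen. Both were higher in HS-EVs, next to 3.71% of all 512. The study had itself described bta-miR-181a as tending to be higher in EVs of heat-stressed cells. The 12 were picked with earlier results of these data known, so these counts are not independent of them. The median log2 fold change of the 12 was 0.07, next to 0.01 over all 512.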
